A study of Mus musculus with 7 samples.

Results

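The genes described here are 10 components of the Wnt signalling system, chosen by name: the secreted Frizzled-related proteins Sfrp1, Sfrp2, Sfrp4, Sfrp5 and Frzb, the Dickkopf family members Dkk2 and Dkk3, the Wnt-binding factor Wif1, the ligand Wnt5a and the intracellular scaffold Axin2. All 10 were found among the 56980 mouse genes of the deposited table. RNA was taken from the myocardial tissue of wild-type male C57BL/6J mice, a common inbred strain, obtained at 8 weeks of age and given 1 week of acclimation. In 3 mice the left coronary artery was ligated (MI mice), in 4 the same operation was done without ligation (sham-operated mice), and tissue was collected 4 days after MI. Each mouse gave 1 library. The study calls the MI samples ischemic, but how the tissue was cut out, and how much surviving muscle it held, is not given in the sources used here.

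Wnt proteins are secreted, lipid-modified ligands that bind Frizzled receptors on the cell surface. In the canonical branch a Frizzled and an LRP5 or LRP6 co-receptor together keep β-catenin from being destroyed, and β-catenin then works with TCF/LEF factors on target genes. Other branches act through ROR, RYK or PTK7 co-receptors, calcium or the cytoskeleton. The SFRPs carry a domain related to the ligand-binding part of Frizzled and bind Wnts outside the cell, WIF1 also binds Wnts, and classical Dickkopf proteins bind LRP5 and LRP6. Axin2 is both part of the β-catenin destruction complex and a widely used target gene of the canonical branch. In the heart, Wnt signals are known from cardiac development and from the response of fibroblasts, vessels and inflammatory cells to injury.

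Values were FPKM, fragments scaled by gene length and by library size, so levels can be compared between genes. Libraries held 19977713 to 23610870 fragments. The heart label was checked first: 10 of 10 cardiomyocyte markers were present in every mouse, with a summed FPKM of 16507 to 17891 in the sham-operated mice and of 10806, 16425 and 11700 in MI replicates 1 to 3. MI replicate 2 stood apart from the other MI mice. Over all tested genes its correlation with the sham-operated mice was 0.984 to 0.987 (Pearson's r across genes, which are not independent replicates), against 0.878 to 0.881 for MI replicate 1, 0.903 to 0.906 for MI replicate 3 and 0.989 to 0.992 among the sham-operated mice. Mitochondrial genes took 28.3% of its fragments, close to the 26.6% to 27.5% of the sham-operated mice, and 13.6% and 15.0% in MI replicates 1 and 3. The tests of the members, and the pathway and marker counts, are therefore also given without this mouse, in a fit that called 57.0% of all tested genes higher and 14.7% lower at an adjusted p of 0.05. Differences between groups are on the scale of log2(FPKM + 1), which understates the change of genes at low levels, and were tested with limma, with Benjamini-Hochberg adjustment, over the 11431 genes that reached an FPKM of 1 in 3 or more of the 7 mice. The median of all tested genes was 0.21 higher in the MI mice on this scale, and between -0.03 (quantile normalization) and 0.42 (TPM) under other scalings. No member passed an adjusted p of 0.05, a level that 0.0262% of all tested genes passed, 0.0175% as higher and 0.00875% as lower. Counts at an unadjusted p under 0.05 are therefore given as a description, beside the share of all genes tested that passed the same level.

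Promoter sequences are shown for Sfrp2 and Frzb, both far higher in MI replicates 1 and 3 than in any sham-operated mouse, and for Axin2, the target gene of the canonical branch. They are the RefSeq sequences of GRCm38.p6 from 250 bases before to 50 bases after the start of transcription, in the direction of the gene, and lie at chr3:83766071-83766370 on the plus strand for Sfrp2, chr2:80447347-80447646 on the minus strand for Frzb and chr11:108920099-108920398 on the plus strand for Axin2. The RefSeq start of Frzb lies 229 bases inside the GENCODE gene whose position is given with its values, so most of the Frzb window is within that gene, while for Sfrp2 and Axin2 both annotations give the same start. Capitals mark matches to the letters of 5 motifs searched on both strands: the TCF/LEF core CTTTGA, the TATA box TATAAA, the CCAAT box CCAAT, the GC box GGGCGG and the AP-1 site TGACTCA.
Sfrp2: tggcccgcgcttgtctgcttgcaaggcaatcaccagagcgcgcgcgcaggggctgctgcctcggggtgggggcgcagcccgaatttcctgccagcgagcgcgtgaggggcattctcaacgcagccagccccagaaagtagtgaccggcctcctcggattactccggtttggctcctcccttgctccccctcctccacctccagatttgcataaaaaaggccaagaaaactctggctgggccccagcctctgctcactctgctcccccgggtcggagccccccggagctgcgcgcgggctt
Frzb: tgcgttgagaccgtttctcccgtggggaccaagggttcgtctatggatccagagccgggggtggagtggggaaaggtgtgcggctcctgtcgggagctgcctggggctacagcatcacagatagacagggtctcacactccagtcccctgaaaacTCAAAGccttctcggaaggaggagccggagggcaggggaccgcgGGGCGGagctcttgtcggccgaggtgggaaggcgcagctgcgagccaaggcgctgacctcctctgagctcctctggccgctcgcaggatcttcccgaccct
Axin2: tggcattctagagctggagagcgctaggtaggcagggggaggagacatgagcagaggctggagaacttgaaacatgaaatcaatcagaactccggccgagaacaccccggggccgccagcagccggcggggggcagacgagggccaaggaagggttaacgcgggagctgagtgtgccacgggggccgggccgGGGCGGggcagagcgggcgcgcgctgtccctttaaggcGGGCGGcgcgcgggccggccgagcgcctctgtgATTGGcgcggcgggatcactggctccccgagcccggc
In the Sfrp2 sequence none of the 5 motifs was found. The Frzb sequence held the reverse complement of the TCF/LEF core, TCAAAG, at base 156 and a GC box at base 200, counted from its 5′ end. The Axin2 sequence held GC boxes at bases 193 and 231 and the reverse complement of the CCAAT box at base 264, and no TCF/LEF core. Of the 10 members, 6 had a promoter in the RefSeq table (Sfrp2, Frzb, Axin2, Dkk2, Wif1 and Sfrp5). The TCF/LEF core was in 1 of these 6 and in 16.0% of all 32851 promoters of the same length. The GC box was in 5 of 6 against 35.7%, the CCAAT box in 3 against 37.4%, the TATA box in 2 against 13.6% and the AP-1 site in 0 against 5.20%. The 6 promoters had a GC content of 57.7% to 70.0%, and the median over all promoters was 52.7%. A match is a description of the letters in this window and not a sign of binding. The lack of a match holds only for the letters searched and for this window.

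Sfrp2 had the highest mean level of the 10 genes in the MI mice and the highest level in MI replicates 1 and 3, while in MI replicate 2 Sfrp1 was higher. It encodes a secreted SFRP made by fibroblasts and other mesenchymal cells (chromosome 3, 83766321 to 83774316, plus strand, GRCm38). Its FPKM was 1.42, 0.751, 0.830 and 0.426 in sham replicates 1 to 4 and 159, 4.60 and 151 in MI replicates 1 to 3. The groups did not overlap, but MI replicate 2 lay much nearer to the sham-operated mice than to the other MI mice. These levels rested on 24 to 90 fragments per sham-operated mouse and on 9767, 294 and 10066 fragments in the MI mice. Mean FPKM was 122 times as high in MI mice, at 105 ± 86.9 (SD, n = 3), as in sham-operated mice, at 0.857 ± 0.415 (SD, n = 4). On the log2 scale the difference was 4.82 (standard error 1.12), the second largest increase of all 11431 tested genes, with an adjusted limma p of 0.108. Without MI replicate 2, over the same genes, it was 6.42 with an adjusted p of 1.24e-06. Since 57.0% of all tested genes passed as higher in that fit, passing in it does not set Sfrp2 apart from other genes.

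Sfrp1, a close relative of Sfrp2 on chromosome 8 (plus strand, 23411502 to 23449632), was the highest of the 10 genes in the sham-operated mice. Its FPKM was 2.42, 2.62, 2.22 and 2.75 in sham replicates 1 to 4 and 58.3, 5.51 and 48.1 in MI replicates 1 to 3. The groups did not overlap, and MI replicate 2 stood much nearer to the highest sham-operated mouse than to the other MI mice. There were 228 to 248 fragments in the sham-operated mice, and 5547, 545 and 4967 in the MI mice. The MI mean of 37.3 ± 28.0 (SD, n = 3) was 14.9 times the sham mean of 2.50 ± 0.230 (SD, n = 4). The log2 difference was 2.93 (standard error 0.71; adjusted p = 0.108), and 3.95 without MI replicate 2 (adjusted p = 6.83e-07).

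Frzb, also known as Sfrp3 and first described for its part in cartilage and skeletal development, is on the minus strand (chromosome 2, 80411970 to 80447625). In FPKM, Frzb stood at 0.967, 1.14, 1.02 and 0.783 in the sham-operated mice and 23.5, 1.38 and 24.0 in the MI mice. The lowest MI mouse, replicate 2, was only just above the highest sham-operated mouse, and the other 2 were nearly equal to each other. Fragment numbers were 57 to 90 in the sham-operated group and 1864, 114 and 2065 in the MI group. Means of 16.3 ± 12.9 (SD, n = 3) in MI and 0.976 ± 0.148 (SD, n = 4) in sham-operated mice gave a ratio of 16.7. The log2 difference of Frzb was 2.52 (standard error 0.78; adjusted p = 0.108), and without MI replicate 2 it was 3.65 (adjusted p = 5.23e-07).

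Sfrp4 and Sfrp5 were low in every mouse. Sfrp4 (chromosome 13, plus strand, 19623104 to 19632994) had 9, 9, 0 and 9 fragments in sham replicates 1 to 4 and 109, 6 and 145 in MI replicates 1 to 3, which gave FPKM values of 0.0578, 0.0598, 0 and 0.0649 and of 0.721, 0.0382 and 0.885. The 0 in sham replicate 3 allows an FPKM of up to 0.0184, from 3 fragments. MI replicates 1 and 3 were above all sham-operated mice, and MI replicate 2 fell inside their range. Sfrp5, which in adult mice is known best from fat tissue (chromosome 19, minus strand, 42197971 to 42202252), had 7 to 16 fragments in the sham-operated and 10 to 12 in the MI mice. Its FPKM was 0.375, 0.170, 0.314 and 0.422 against 0.242, 0.232 and 0.267, and all 3 MI mice lay within the range of the sham-operated mice, so no difference was detectable at this depth. Neither gene reached the level needed for the test. In a fit of all 30504 genes above 0 in any mouse, the log2 difference was 0.52 for Sfrp4 (adjusted p = 0.188) and -0.08 for Sfrp5 (adjusted p = 0.513). Without MI replicate 2 and without the filter, the adjusted limma p was 0.000289 for Sfrp4 and 0.583 for Sfrp5.

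**Figure D1:**
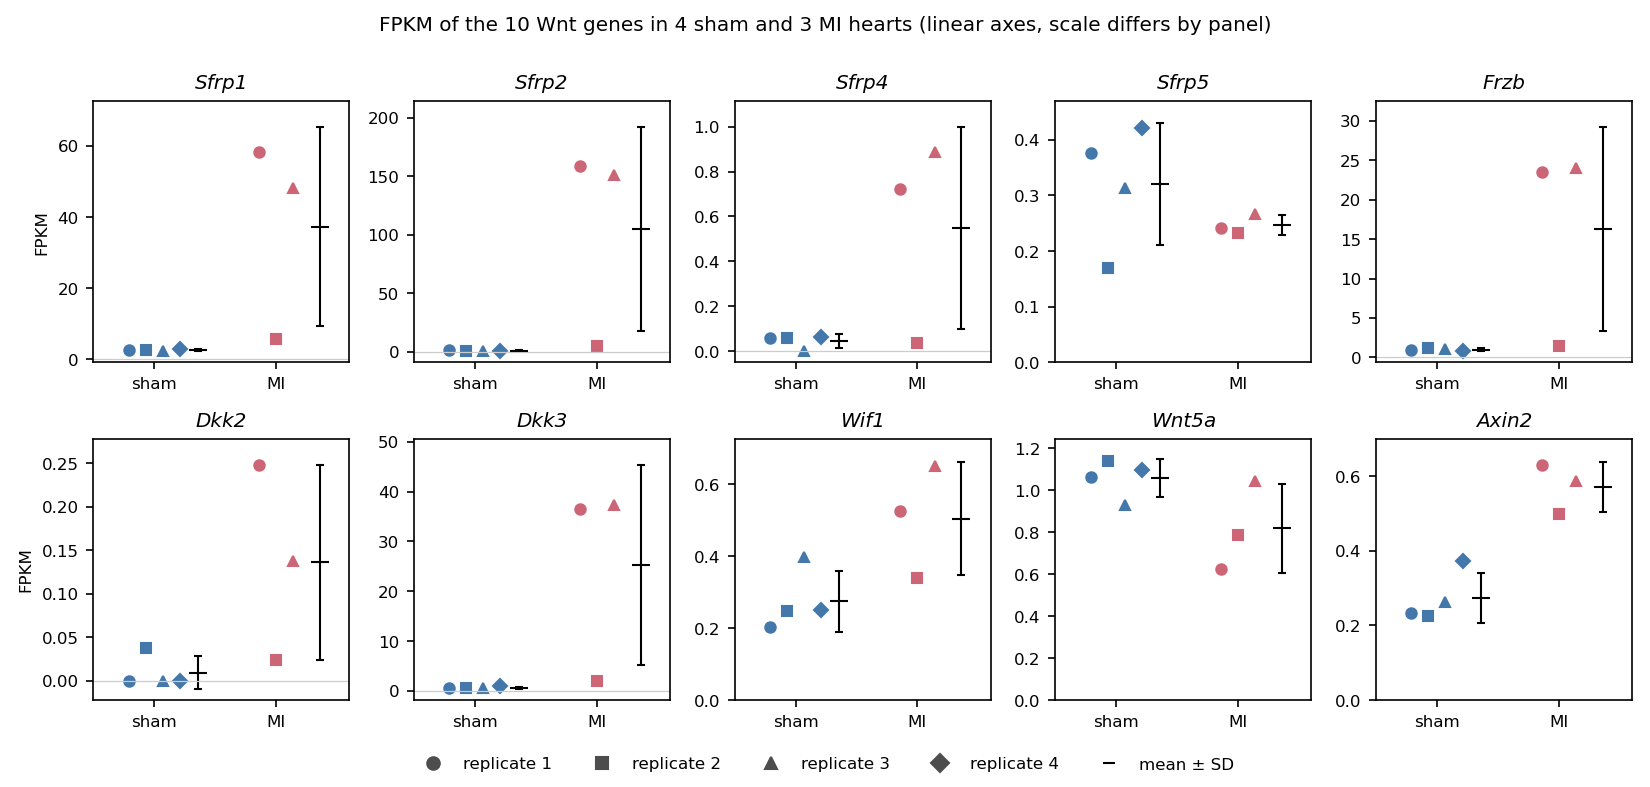
FPKM (linear axes, a scale of its own in each panel) of the 10 genes in 4 sham-operated and 3 MI mice, 1 point per mouse, with the mean and SD of each group beside the points. For Sfrp1, Sfrp2, Frzb and Dkk3, MI replicates 1 and 3 stand far above the other mice and MI replicate 2 lies near the sham-operated mice, while for Axin2 all 3 MI mice lie between 0.498 and 0.630, above the highest sham-operated mouse at 0.373.

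The make-up of the SFRP family differed between the groups as well as its sum. The FPKM of the 5 genes together was 4.38 to 5.24 in the sham-operated mice and 242, 11.8 and 224 in MI replicates 1 to 3. Sfrp1 held the largest share in every sham-operated mouse, 46.1% to 61.8%, followed by Frzb or Sfrp2. In MI replicates 1 and 3 Sfrp2 held 65.8% and 67.3%, against 9.58% to 27.1% in the sham-operated mice. MI replicate 2 lay between, with 39.1% for Sfrp2 and 46.8% for Sfrp1, and its Sfrp2 share was above that of all sham-operated mice. The share of Frzb was 17.6% to 24.0% in the sham-operated and 9.72% to 11.8% in the MI mice, so that Frzb stood higher in level and lower in share. Shares were compared as values, with no test.

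**Figure D2:**
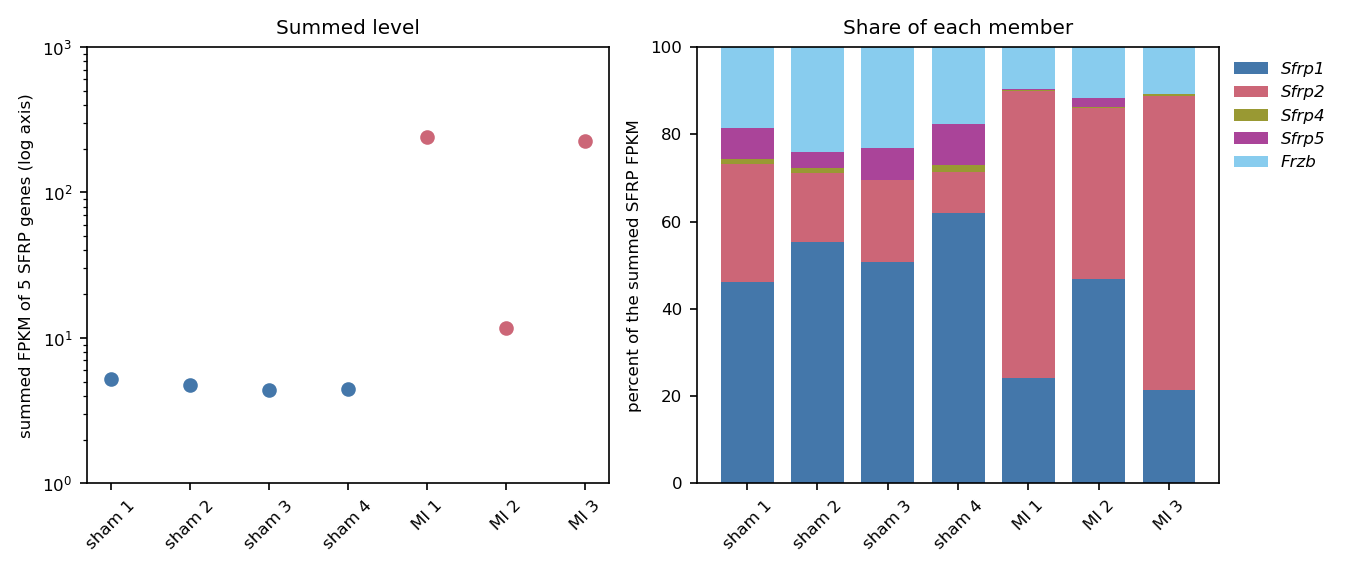
Left, summed FPKM of Sfrp1, Sfrp2, Sfrp4, Sfrp5 and Frzb in each mouse (log axis); right, the percentage of that sum held by each gene, as stacked bars. The sum is 4.38 to 5.24 in the 4 sham-operated mice and at least 11.8 in the 3 MI mice, and the Sfrp2 segment is 39.1% to 67.3% in MI mice against at most 27.1% in sham-operated mice.

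Dkk3 was the most abundant member outside the SFRP family in the MI mice. Dkk3 is a divergent Dickkopf protein that is not known to block LRP5 or LRP6 in the manner of its relatives, and its gene is on the minus strand (chromosome 7, 112116017 to 112159057). FPKM was 0.518, 0.508, 0.583 and 0.984 in the sham-operated mice and 36.4, 2.00 and 37.3 in the MI mice. Sham replicate 4 was the highest of its group, and MI replicate 2, at 152 fragments, was still above it. The other fragment numbers were 37 to 66 in the sham-operated mice and 2666 and 2957 in MI replicates 1 and 3. Means of 0.648 ± 0.226 (SD, n = 4) and 25.2 ± 20.1 (SD, n = 3) gave a ratio of 38.9. Its log2 difference was 3.31 (standard error 0.85; adjusted p = 0.108), and 4.53 (adjusted p = 8.58e-07) without MI replicate 2. Dkk3 passed the filter through its MI mice alone, since 0 of 4 sham-operated mice reached an FPKM of 1, and Sfrp2 passed with 1 of 4. Frzb also needed its MI mice to pass, since sham replicates 1 and 4 were under 1, at 0.967 and 0.783.

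Dkk2, a classical Dickkopf protein that binds LRP6, was near the limit of detection, and Wif1 was low in every mouse. Dkk2 (chromosome 3, plus strand, 132085292 to 132180304) had 0, 3, 0 and 0 fragments in the sham-operated mice and 20, 2 and 12 in the MI mice. The FPKM was 0.0373 in sham replicate 2 and 0.248, 0.0238 and 0.137 in the MI mice, and a count of 0 allows up to 0.0361, 0.0345 and 0.0405 in sham replicates 1, 3 and 4. MI replicate 2 was below these limits, while the other 2 MI mice were above them. For Wif1 (chromosome 10, plus strand, 121033960 to 121100650) the FPKM was 0.204, 0.249, 0.398 and 0.250 against 0.525, 0.340 and 0.651, from 22 to 45 and from 37 to 74 fragments. MI replicate 2 fell below sham replicate 3, so the groups overlapped. In the fit without the filter, the log2 difference was 0.17 for Dkk2 (adjusted p = 0.188) and 0.24 for Wif1 (adjusted p = 0.190). Leaving out MI replicate 2 gave adjusted limma p-values of 0.00671 for Dkk2 and 0.0211 for Wif1 in a fit that called 35.8% of the 30504 genes higher and 5.85% lower.

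Wnt5a was above the highest sham-operated mouse in none of the 3 MI mice. It encodes the best known ligand of the branches that work without β-catenin and is on the plus strand (chromosome 14, 28504750 to 28527448). Its FPKM was 1.06, 1.14, 0.931 and 1.09 in the sham-operated mice and 0.623, 0.786 and 1.04 in the MI mice, on 274 to 310 and on 170 to 309 fragments. MI replicates 1 and 2 were below all sham-operated mice, and MI replicate 3 was inside their range. The mean was 1.06 ± 0.0897 (SD, n = 4) in sham-operated and 0.817 ± 0.212 (SD, n = 3) in MI mice. A log2 difference of -0.18 (standard error 0.10) had an adjusted limma p of 0.196, and it was -0.17 (adjusted p = 0.187) without MI replicate 2. Relative to the median of all tested genes the difference was -0.39. The size depended on the scaling. The difference was -0.13 (adjusted p = 0.549) after rescaling to TPM, -0.30 (adjusted p = 0.101) after quantile normalization, -0.30 (adjusted p = 0.0982) with median log-ratio scaling and -0.29 (adjusted p = 0.112) when mitochondrial genes were left out, and the groups did not overlap under the last 2. At an unadjusted p under 0.05 Wnt5a would count as lower under the last 3 and not in the values as deposited.

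Axin2 was the only member with 3 similar values in the MI mice that were all above the sham-operated mice. Its gene is on the plus strand (chromosome 11, 108920349 to 108950783). FPKM was 0.233, 0.225, 0.263 and 0.373 in the sham-operated mice and 0.630, 0.498 and 0.586 in the MI mice, on 42 to 64 and on 97 to 119 fragments. On the log2 scale, the MI mice were 0.36, 0.24 and 0.32 above the mean of the sham-operated mice, so that MI replicate 2 was near the others. For Sfrp2 the same 3 distances were 6.45, 1.62 and 6.38, and for Frzb 3.63, 0.27 and 3.66. The MI mean of 0.572 ± 0.0671 (SD, n = 3) was 2.09 times the sham mean of 0.274 ± 0.0680 (SD, n = 4). Axin2 did not reach the level needed for the test. In the fit without the filter its log2 difference was 0.30 (standard error 0.07) with an adjusted limma p of 0.188, and without MI replicate 2 the adjusted p was 0.00739.

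Of the 5 members that were tested, 4 were higher in MI at an unadjusted p under 0.05, a share to be read beside the 29.5% of all tested genes that did so, and 0 were lower, beside 9.85%. In the fit without the filter, 8 of 10 were higher at this level, all but Sfrp5 and Wnt5a, beside 20.6% of the 30504 genes. Among all 10 members the groups did not overlap, with MI higher, for Sfrp1, Sfrp2, Frzb, Dkk3 and Axin2, beside 12.0% of the 30504 genes above 0. For MI lower the count was 0 of 10, beside 4.34%. Since Sfrp2, Dkk3 and Frzb needed their MI mice to pass the filter, the count of tested members, and their ranks below, are a description only. In size, the 4 differences from 2.52 to 4.82 ranked 2 (Sfrp2), 17 (Dkk3), 29 (Sfrp1) and 42 (Frzb) of 11431, and 95% of all tested genes were below 1.04. These 4 kept their direction, and the 5 genes kept their separation, after rescaling to TPM, scaling by the median log-ratio and leaving out the mitochondrial genes. By mean FPKM the order in the sham-operated mice was Sfrp1, Wnt5a, Frzb, Sfrp2, Dkk3, Sfrp5, Wif1, Axin2, Sfrp4 and Dkk2, and the ranges of neighbours overlapped except between Sfrp1 and Wnt5a, Dkk3 and Sfrp5, and Axin2 and Sfrp4. In the MI mice the order was Sfrp2, Sfrp1, Dkk3, Frzb, Wnt5a, Axin2, Sfrp4, Wif1, Sfrp5 and Dkk2, and the ranges were apart only between Frzb and Wnt5a and between Wif1 and Sfrp5.

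**Figure D3:**
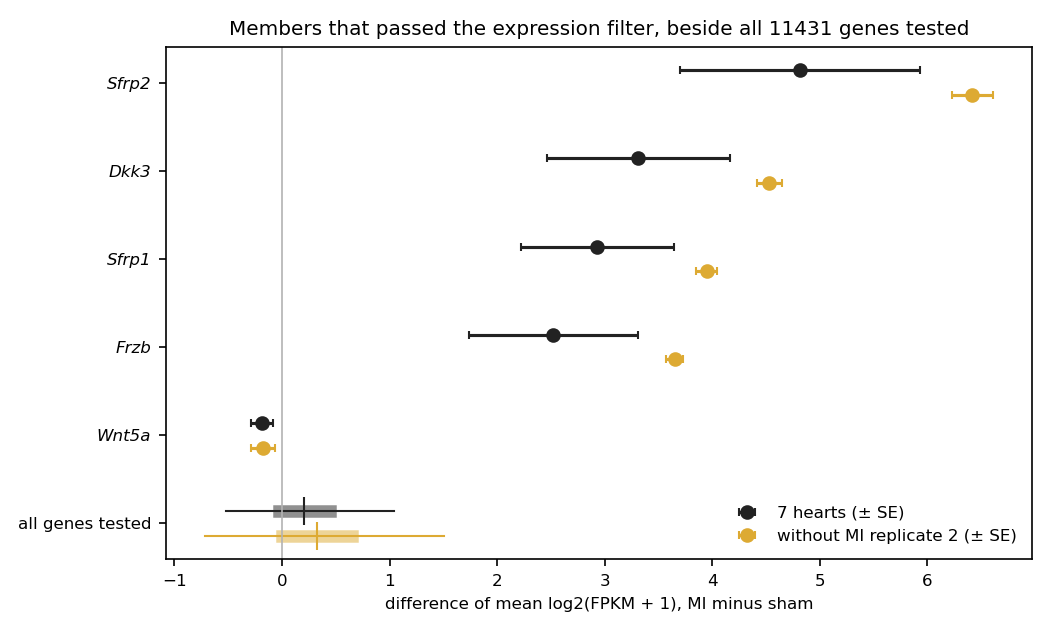
Difference of mean log2(FPKM + 1), MI minus sham, with its standard error from limma for the 5 members that passed the filter, over 7 mice (black) and without MI replicate 2 (yellow). At the bottom, the thin line spans the 5th to 95th percentile of all 11431 genes, the thick line the 25th to 75th, and the tick marks the median of 0.21 over 7 mice: Sfrp2, Dkk3, Sfrp1 and Frzb lie beyond the 95th percentile of 1.04, and Wnt5a at -0.18 lies inside the range.

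The genes with the profile nearest to that of Sfrp2 over the 7 mice, by the root mean square difference of log2(FPKM + 1) after subtraction of each gene's sham mean, were Cthrc1 (0.310), Sprr1a (0.416), Postn (0.547), Thbs4 (0.567) and Nppa (0.581). All 5 had higher values in MI replicates 1 and 3 than in MI replicate 2. Their choice by nearness to Sfrp2 in these same mice made this pattern certain. Postn, which encodes the matrix protein periostin of activated fibroblasts, had an FPKM of 3.12 to 4.06 in the sham-operated mice and 206, 10.8 and 200 in the MI mice. Nppa encodes atrial natriuretic peptide, a product of cardiac muscle cells, and had 69.7 to 185 against 7940, 160 and 8125. Of the other members, Dkk3 was nearest to Sfrp2 (1.09), 17th among all tested genes.

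Markers of other cell types moved with these values. The counts of markers stand beside 29.5% of all tested genes higher and 9.85% lower at an unadjusted p under 0.05. For groups that did not overlap, the shares of all tested genes were 16.1% with MI higher and 9.0% with MI lower. All 10 fibroblast markers were higher in MI at an unadjusted limma p under 0.05, and 9 did not overlap between the groups. Their summed FPKM was 126 to 149 in the sham-operated mice and 2505, 236 and 1936 in the MI mice, and none was at 0 in any mouse. The 8 macrophage markers summed to 199 to 252 against 1317, 240 and 1127. All 8 were higher at an unadjusted p under 0.05, but only 3 did not overlap between the groups. The 6 mesothelial markers, of the outer lining of the heart, summed to 4.16 to 9.69 against 29.4, 20.9 and 43.5. Of these, 5 of 5 tested were higher, and the same 5 did not overlap. Fcgr1 among the macrophage markers and Upk1b and Krt19 among the mesothelial markers passed the filter through their MI mice alone. The mesothelial markers Msln and Lrrn4 also needed MI mice to pass. The counts for these 2 cell types, here and without MI replicate 2, are therefore a description only. In MI replicate 2 the fibroblast and mesothelial sums, like Sfrp1, Sfrp2, Frzb, Dkk3 and Axin2, were above every sham-operated mouse. The macrophage sum of this mouse was inside the range of the sham-operated mice. Cardiomyocyte markers were lower at an unadjusted p under 0.05 in 6 of 10, and 2 of the 10 did not overlap between the groups. Without MI replicate 2, all 10 fibroblast, 8 macrophage and 5 tested mesothelial markers were higher at an adjusted p of 0.05, and 9 of 10 cardiomyocyte markers were lower, beside 57.0% higher and 14.7% lower of all tested genes. The sums of the 7 endothelial markers were 134 to 153 against 168, 126 and 180. Those of the 7 smooth muscle and pericyte markers were 216 to 255 against 335, 219 and 374. The 6 skeletal muscle markers summed to 741 to 1072 against 761, 839 and 934, and all 3 sums overlapped between the groups. Nearly all of the last sum was Ckm, at 635 to 738 in the sham-operated mice, and Acta1, at 74.4 to 342, and not skeletal myosin. The skeletal myosins Myh1 and Myh2 were at most 0.0139 and 0.0175 in any mouse, and Myh4 was at 0 in every mouse. Tnnt3 did not overlap, with 0.138 to 0.208 against 1.88, 0.221 and 2.54. In the fit without MI replicate 2, 5 of 7 tested endothelial markers were higher, 3 of 6 smooth muscle and pericyte markers were higher and 1 lower, and 1 of 2 skeletal muscle markers was lower, again beside 57.0% and 14.7%, so that these counts do not set the 3 cell types apart from other genes. In whole tissue, fewer cells of a type and less RNA per cell cannot be told apart, and the part of these cell types in the values of the Wnt genes was not tested. As ratios, Sfrp2 stood at 0.188 to 0.552 of the FPKM of the fibroblast receptor gene Pdgfra in the sham-operated mice and at 15.0, 1.46 and 21.4 times it in the MI mice. Relative to the collagen gene Col1a1, Sfrp2 was at 0.0249 to 0.0618 and at 0.207, 0.113 and 0.266, again without overlap. Sfrp1 relative to Pdgfra was at 0.907 to 1.21 against 5.49, 1.75 and 6.83, without overlap, but relative to Col1a1 the groups overlapped, with 0.105 to 0.161 against 0.0759, 0.136 and 0.0846. Dkk3 likewise did not overlap relative to Pdgfra, with 0.201 to 0.434 against 3.43, 0.634 and 5.29, and overlapped relative to Col1a1. Frzb overlapped relative to both, with 0.345 to 0.461 of Pdgfra in the sham-operated mice and 2.21, 0.438 and 3.41 in the MI mice. The ratio of Wnt5a to Pdgfra was 0.380 to 0.482 in the sham-operated mice and 0.0586, 0.249 and 0.148 in the MI mice. Axin2 overlapped relative to both genes, with 0.0906 to 0.164 of Pdgfra in the sham-operated mice and 0.0594, 0.158 and 0.0833 in the MI mice, and with 0.0101 to 0.0218 of Col1a1 against 0.000821, 0.0123 and 0.00103. MI replicates 1 and 3 were below all sham-operated mice in both ratios.

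The secreted inhibitors were next set beside the Wnt ligands. The 8 secreted inhibitor members summed to an FPKM of 5.36 to 5.96 in the sham-operated mice and 279, 14.1 and 262 in the MI mice. The sum includes Dkk2 and Dkk3, which are not known as binders of Wnt ligands, and Dkk3 held 8.69% to 17.3% of it in the sham-operated mice and 13.1% to 14.2% in the MI mice. All 19 Wnt ligands together summed to 3.36 to 3.96 and to 16.0, 3.59 and 9.58. The ratio of these 8 inhibitors to the ligands was 1.51 to 1.64 in the sham-operated mice and 17.4, 3.93 and 27.4 in the MI mice, while the ligand sum of MI replicate 2 lay among the sham-operated mice. The size of this gap depended on which inhibitors were summed. Trabd2b, a membrane-bound protease that cleaves Wnts, and Igfbp4, an insulin-like growth factor binding protein that is also known to inhibit Wnt signals, are named here after their values were seen, since each alone exceeded the sum of the 8 members in every sham-operated mouse. Trabd2b had an FPKM of 22.5 to 29.2 in the sham-operated mice and 13.8, 23.4 and 14.2 in the MI mice. Its log2 difference was -0.59 (adjusted p = 0.108), and -0.82 (adjusted p = 0.000412) without MI replicate 2. Igfbp4 had 8.04 to 15.7 against 42.1, 15.2 and 39.3, with a log2 difference of 1.24 (adjusted p = 0.108) that was 1.69 (adjusted p = 0.000453) without MI replicate 2. With all listed inhibitors but Cthrc1 in the sum, the ratio to the ligands was 10.6 to 13.8 in the sham-operated mice and 21.0, 14.8 and 33.3 in the MI mice, so that MI replicate 2 was only just above the sham-operated mice. Wnt5a held 26.8% to 33.9% of the ligand sum in the sham-operated mice and 3.89%, 21.9% and 10.9% in the MI mice. The largest share in MI replicates 1 and 3 was that of Wnt4, a ligand known from kidney and reproductive tract development, named here after its values were seen. Wnt4 had 2, 3, 6 and 6 fragments in the sham-operated mice and 751, 32 and 238 in the MI mice, an FPKM of 0.0213 to 0.0716 against 8.22, 0.337 and 2.40. Its share of the ligand sum was 0.537% to 1.93% against 51.4%, 9.39% and 25.1%. In limma without the filter its log2 difference was 1.73 (adjusted p = 0.188), and 2.42 (adjusted p = 0.00519) without MI replicate 2. No ligand other than Wnt5a reached the level needed for the test, and 4 of the 18 were at 0 in every mouse.

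**Figure D4:**
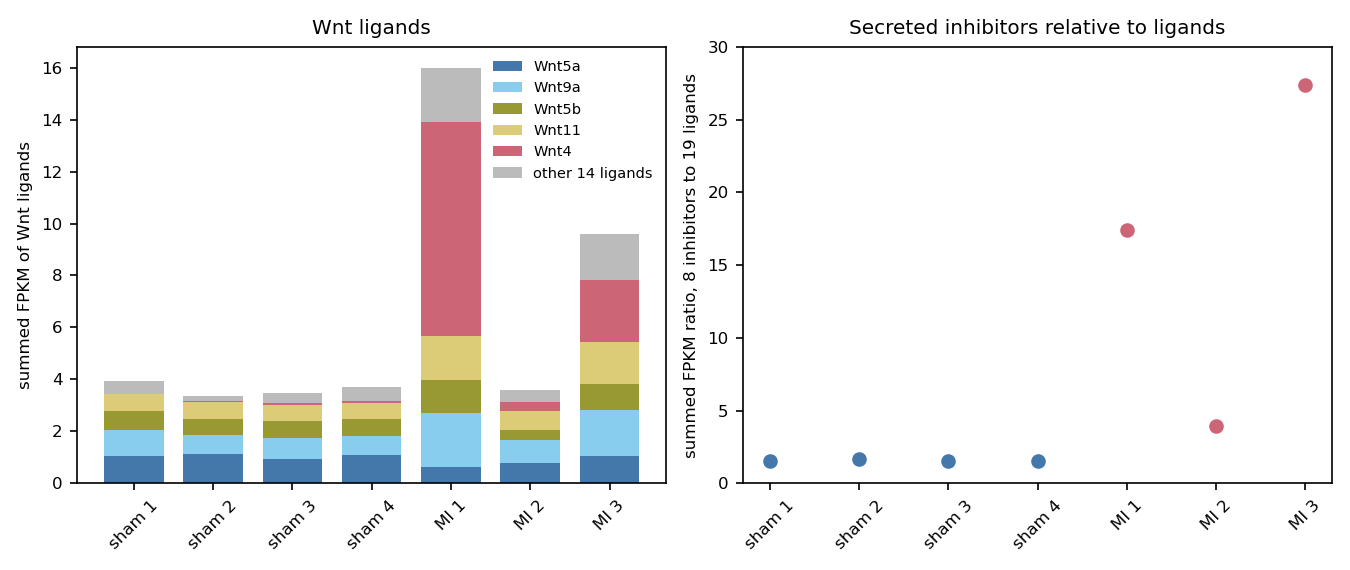
Left, summed FPKM of the 19 Wnt ligands in each mouse as stacked bars, with 5 ligands shown by name and the other 14 in grey; right, the ratio of the summed FPKM of the 8 secreted inhibitor members to that of the 19 ligands. The ligand sum is 16.0 and 9.58 in MI replicates 1 and 3, where the Wnt4 segment is 51.4% and 25.1%, and the ratio is 3.93 to 27.4 in the MI mice against 1.51 to 1.64 in the sham-operated mice.

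Of the 96 other pathway genes listed, 95 were in the table and 39 passed the filter. None passed an adjusted p of 0.05 in limma, while 16 were higher and 2 lower at an unadjusted p under 0.05, that is 41.0% and 5.13% beside the background of 29.5% and 9.85%. Among the 16, Cthrc1, Rspo1 and Ptk7 passed the filter through their MI mice alone, so this share is a description only. Their median log2 difference was 0.26, close to the 0.21 of all tested genes. Under the 4 other scalings the counts were 14 to 18 higher and 1 to 6 lower. When MI replicate 2 was left out, an adjusted p of 0.05 was passed by 25 of the 39 as higher and 3 as lower, beside 57.0% and 14.7% of all tested genes. The groups did not overlap for 11 with MI higher and for 2 with MI lower, beside 16.1% and 9.0% of all tested genes. Cthrc1, Rspo1 and Ptk7 are among the 11, so this count is also a description only. Separation depended on the scaling for some genes. Fzd4, Bcl9l, Kremen1 and Daam1 overlapped under at least 1 other scaling. Lgr4, Bcl9 and Ccnd1 overlapped in the values as deposited and were apart under at least 1 other.

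Cthrc1 and Fzd2 had the largest differences of these 39 genes. Cthrc1, a secreted glycoprotein of activated fibroblasts that is known to help Wnt5a engage Frizzled and ROR2, was listed with the secreted modulators although it is not a classical inhibitor. It had 4, 5, 1 and 1 fragments in the sham-operated mice and 3856, 72 and 3456 in the MI mice, an FPKM of 0.0188 to 0.102 against 78.1, 1.40 and 64.5. Its log2 difference was 4.46 (standard error 1.13; adjusted p = 0.108), and 6.09 (adjusted p = 2.70e-07) without MI replicate 2. Rspo1, a secreted R-spondin that strengthens Wnt signals through LGR receptors, had an FPKM of 0.274, 0.445, 0.859 and 0.768 in the sham-operated mice and 3.73, 1.39 and 3.55 in the MI mice, with a log2 difference of 1.25 (standard error 0.26; adjusted p = 0.108) that was 1.56 (adjusted p = 0.000147) without MI replicate 2. Wls, which carries Wnts to the cell surface, overlapped between the groups, with 3.54 to 3.87 against 10.03, 3.54 and 8.34, and Porcn, which attaches their lipid, with 0.437 to 0.743 against 1.497, 0.652 and 1.06.

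Of the 18 receptors and co-receptors, 12 were tested, 9 of them were higher at an unadjusted p under 0.05 and none lower, beside 29.5% and 9.85% of all tested genes. Without MI replicate 2, 11 of the 12 were higher at an adjusted p of 0.05 and 0 lower, beside 57.0% and 14.7%. Under the other scalings 8 to 10 were higher and 0 or 1 lower. Ptk7 is among the 9 and passed the filter through its MI mice alone, so these counts are a description only. Fzd2, a Frizzled, had an FPKM of 1.01 to 1.22 in the sham-operated mice and 10.03, 1.29 and 8.65 in the MI mice, a log2 difference of 1.55 (standard error 0.51; adjusted p = 0.108), and 2.27 (adjusted p = 2.30e-06) without MI replicate 2. Ptk7, a co-receptor of the planar polarity branch, had 0.796 to 0.997 against 5.16, 1.19 and 5.74, and the Frizzled gene Fzd7 had 1.45 to 1.58 against 5.57, 2.09 and 3.94. In these 3 genes all MI mice were above all sham-operated mice. Fzd1 overlapped, with 1.92 to 2.22 against 14.6, 2.00 and 12.6, since MI replicate 2 was inside the range of the sham-operated mice. Ror2, a receptor for Wnt5a, did not pass the filter and had 0.297 to 0.390 against 2.16, 0.437 and 1.38. The co-receptor Lrp6 had 4.75 to 5.07 against 6.39, 4.86 and 6.49, with a log2 difference of 0.22 (adjusted p = 0.168) that was negative under 2 of the 4 other scalings, at -0.05 after quantile normalization and -0.00108 after scaling by the median log-ratio. Without MI replicate 2 it was 0.33 (adjusted p = 0.00125).

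Of the 9 tested genes of the cytoplasmic β-catenin branch none passed an unadjusted p of 0.05 in either direction, beside 29.5% higher and 9.85% lower of all tested genes, and their median difference was 0.14. The median was -0.07 after quantile normalization, where 2 of the 9 were above 0 instead of 9, and also -0.07 with median log-ratio scaling, where 3 were, and after TPM 1 gene was higher at an unadjusted p under 0.05. The absence of calls also depended on MI replicate 2, without which 4 of the 9 were higher at an adjusted p of 0.05 and 0 lower, beside 57.0% and 14.7%. The β-catenin gene Ctnnb1 had an FPKM of 22.9, 30.4, 33.1 and 27.1 in the sham-operated mice and 44.4, 30.1 and 22.6 in the MI mice, with an adjusted limma p of 0.630 (0.576 without MI replicate 2), and its direction turned under quantile normalization (-0.07) and median log-ratio scaling (-0.10). Of 5 tested nuclear factors, 3 were higher and 0 lower at an unadjusted p under 0.05, beside the same 29.5% and 9.85%, and without MI replicate 2 an adjusted p of 0.05 was passed by 3 as higher and by 1 as lower. Tcf7l1, a TCF factor known mostly as a repressor, had 2.03 to 2.28 against 3.57, 2.59 and 4.19, a log2 difference of 0.47 (standard error 0.13), and 0.62 (adjusted p = 0.000309) without MI replicate 2. Bcl9l, a β-catenin co-activator, had 3.06 to 3.30 against 6.09, 4.18 and 4.27, a difference of 0.47 (standard error 0.13) that was 0.55 (adjusted p = 0.00440) without MI replicate 2, and its groups overlapped after scaling by the median log-ratio. Lef1 was low throughout, with 2 to 4 fragments per sham-operated mouse and 20, 7 and 17 in the MI mice.

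Other targets of the canonical branch gave mixed values. Ccnd1, which encodes cyclin D1, had an FPKM of 17.8 to 19.7 in the sham-operated mice and 17.1, 14.5 and 18.2 in the MI mice, with a log2 difference of -0.18 (adjusted p = 0.215). This depended on the scaling, with 0.01 after rescaling to TPM, -0.41 after quantile normalization, -0.42 with median log-ratio scaling and -0.32 when mitochondrial genes were left out. The groups of Ccnd1 did not overlap under the last 2, and at an unadjusted p under 0.05 it would count as lower under the last 3. The other 4 listed targets were below the filter, and 3 of them, named after their values were seen, did not overlap with MI higher, beside 12.0% of the 30504 genes above 0. Nkd1 had 19 to 34 fragments per sham-operated mouse and 214, 43 and 137 in the MI mice, Nkd2 had 40 to 66 and 801, 66 and 956, so that only its FPKM, at most 0.367 in the sham-operated mice and 0.381 in MI replicate 2, kept the groups apart, and Myc had 41 to 59 and 294, 95 and 453. Nkd1 and Nkd2 encode antagonists of Dishevelled that are known feedback genes. In the planar polarity branch none of 5 tested genes passed an unadjusted p of 0.05, beside 29.5% higher and 9.85% lower of all tested genes, while without MI replicate 2 an adjusted p of 0.05 was passed by 3 of the 5 as higher and by 0 as lower, beside 57.0% and 14.7%. In this branch Daam1, a formin that links Dishevelled to the cytoskeleton, had an FPKM of 6.53 to 7.55 against 6.09, 6.52 and 6.52, with a log2 difference of -0.14 (adjusted p = 0.248). For Daam1 the difference was 0.04 after rescaling to TPM, -0.41 after quantile normalization, -0.36 with median log-ratio scaling and -0.27 when mitochondrial genes were left out. Under the last 3 scalings, 1 of the 5 genes was lower at an unadjusted p under 0.05.

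**Figure D5:**
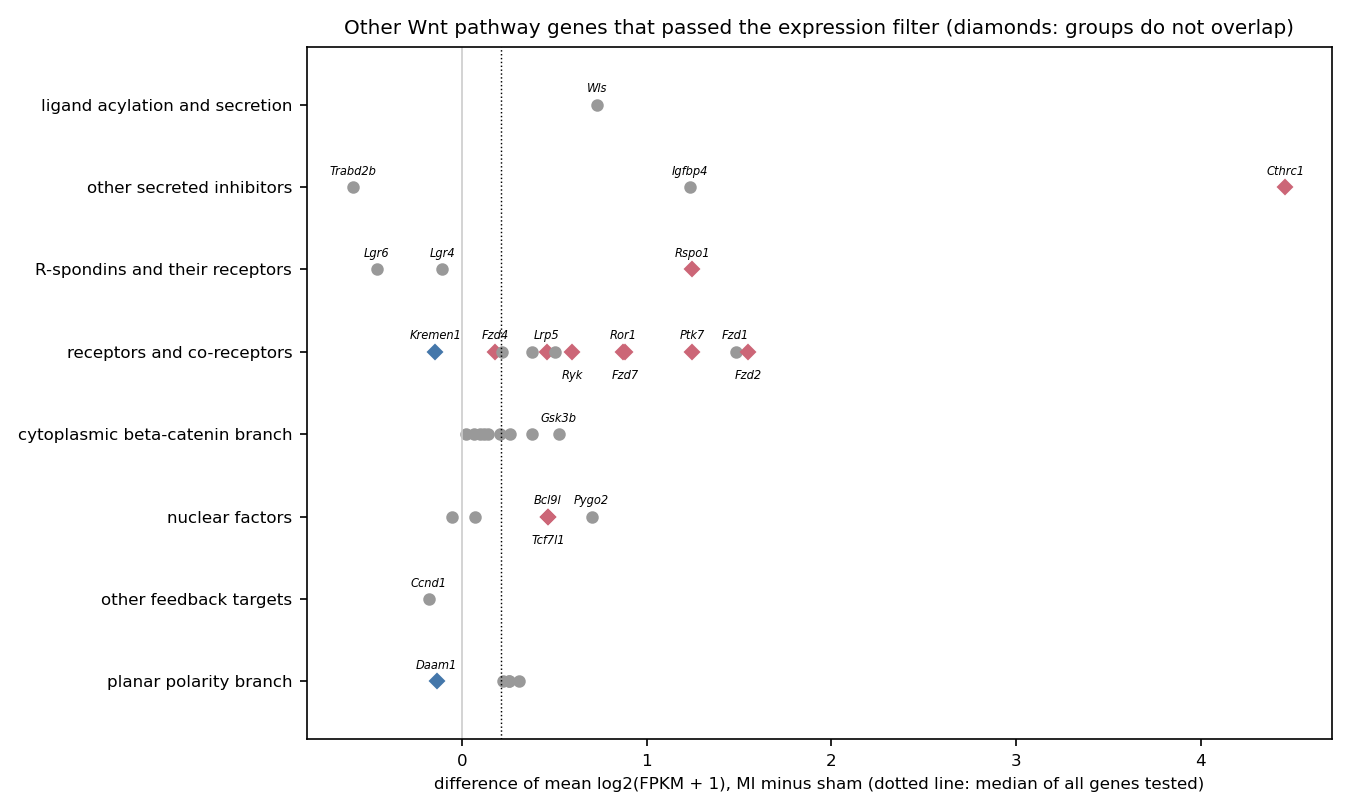
Difference of mean log2(FPKM + 1), MI minus sham, for the 39 other Wnt pathway genes that passed the filter, 1 row per role and 1 point per gene; diamonds mark genes whose groups do not overlap (red with MI higher, blue with MI lower), grey circles genes whose groups overlap, and the dotted line the median of all tested genes at 0.21. Cthrc1 stands apart at 4.46, the receptors reach 1.55, and the 9 genes of the cytoplasmic branch lie between 0.02 and 0.53.

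Reads of antisense genes could not be told apart from those of the member where exons overlap, since the sources used here do not give the strand setting of the counting. Sfrp2 shares 347 exon bases with Gm26771 on the opposite strand, which had 0 fragments in each sham-operated mouse and 5, 0 and 9 in the MI mice. Wnt5a shares 358 with Gm2670, at 0 fragments in the sham-operated mice and 1, 0 and 2 in the MI mice, and Axin2 shares 209 with Gm11670, at an FPKM of 0 in every mouse. These numbers were small beside the fragments of the members themselves.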

How the data were processed

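RNA from the myocardial tissue of 4 sham-operated and 3 MI mice was sequenced, 1 library per mouse, and the labels gave the groups. The authors deposited a table of FPKM values for 56980 Ensembl genes, and all 7 columns were used (0 left unused). The submitters' processing notes name CASAVA 1.8, HISAT2, SAMtools 1.3.1, edgeR and the build mm10, without a role for each. The annotation, the counting program and the strand setting are not given in the sources used here. Symbols and positions came from GENCODE M21 on GRCm38 (52073 of the identifiers, 91.4%, had a symbol), and promoter sequences from RefSeq (GRCm38.p6).

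FPKM values moved in whole steps of 1 fragment. Whole fragments were recovered within 0.05 of a whole number for 30503 of the 30504 genes above 0, and the gene lengths behind them matched GENCODE M21 for 38.4%. Limits for 0 fragments use 3 fragments and cover counting error only. The recovery and the test were tested on simulated data. MI and sham-operated mice were compared with limma 3.58.1 (lmFit, eBayes with trend) in R 4.3.3 on log2(FPKM + 1), two-sided, without covariates, over the 11431 genes that reached an FPKM of 1 in 3 or more mice, with Benjamini-Hochberg adjustment at 0.05. The paper's methods describe no test for the sequencing data, and what edgeR was used for is not given in the sources used here. Tables and figures were made with pandas 2.3.3, NumPy 2.4.6 and matplotlib 3.10.9 in Python 3.11.15.

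The members and gene lists were chosen with earlier results of these data known. The named genes are the members, up to 3 tested genes per role list with the largest difference among those whose groups do not overlap, 10 pathway genes set by name, and the 5 tested genes nearest to Sfrp2. Tiki1 was not matched in the table. In all, 18 alternatives were listed at first: no filter or one on the mean, a pseudocount of 0.1, rescaling to TPM or by median log-ratios, quantile normalization, leaving out the mitochondrial genes, limma without the trend, sample weights, voom weights on the recovered fragments, a replicate block and each mouse left out, and 2 without MI replicate 2 were added after seeing the data.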

Additional observations from a re-analysis of the deposited data

Results flagged for a closer look

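In groups of 4 mice, a mouse was flagged when its distance to the nearest of the others was a larger part of the group's range than Dixon's 95% critical value, a rule that chance meets in about 1 of 20 groups. Of 13 sets of values tested, 3 were flagged, all in sham-operated mice. For Dkk3 the value was 0.841, with sham replicate 4 at an FPKM of 0.984 and the others at 0.508 to 0.583. For Sfrp4 it was 0.891, with 0 fragments in sham replicate 3 and 9 in each of the others. For Dkk2 it was 1.00, with 3 fragments in sham replicate 2 and 0 in the others. The last 2 rest on single-digit fragment numbers. MI replicates were too few for this rule.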

How the results depend on the processing

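Over the 7 mice, an adjusted p of 0.05 was passed by 2 genes as higher and 1 as lower, with 0 members and 0 other pathway genes, and at an unadjusted p under 0.05 4 members were higher, and 16 other pathway genes were higher and 2 lower. All-gene counts (higher, then lower) were 5 higher with a pseudocount of 0.1, 20 higher without the filter, 0 and 0 with the filter on the mean, 0 lower after TPM, 10 and 5 after quantile normalization, 10 and 5 when scaled by median log-ratios, 8 and 3 without the mitochondrial genes, and 1 higher with voom weights. The unadjusted count of other pathway genes lower was 1 after TPM and 6 after the last 3 scalings, and without the filter 8 members and 35 other pathway genes were higher. Sample weights gave MI replicate 3 a weight of 436.7 against 0.0906 and 0.0217 for MI replicates 1 and 2, which leaves nearly 1 MI mouse, and called 7636 genes higher and 2316 lower, with 4 members and 29 other pathway genes higher and 6 lower.

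Leaving out 1 mouse at a time, all-gene counts ran from 0 to 6394 higher and from 0 to 1677 lower, members from 0 to 3 higher (2 to 4 at an unadjusted p), and other pathway genes from 0 to 22 higher and 0 to 3 lower (7 to 24 and 0 to 3 at an unadjusted p). The highest adjusted counts came without MI replicate 2, the lowest unadjusted counts of members, 2, without MI replicate 1 or 3. Dkk3 failed the filter in each fit without an MI mouse, and is not among the members counted there, so 2 fits without MI replicate 2 were added after seeing the data. Over the genes tested in 7 mice they gave 6512 genes higher and 1683 lower, 4 members higher, and 25 other pathway genes higher and 3 lower (27 higher at an unadjusted p). Without the filter they gave 10920 and 1786 genes, 8 members, and 53 and 5 other pathway genes (60 and 5 at an unadjusted p). The share of Sfrp2 in the SFRP sum was 57.4% as a mean over MI mice and 66.5% without MI replicate 2, against 17.9% in sham-operated mice.

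The replicate numbers are shared between the groups, and deviations of same-numbered mice from their group means correlated at 0.074, -0.016 and -0.080. MI replicate 2 stood apart, which shapes the deviations of all MI mice, so these values cannot show whether the numbers pair the mice. With the replicate block, 0 genes were higher and 0 lower, 0 other pathway genes were lower at an unadjusted p, and the adjusted p of Sfrp2 was 0.240. Sfrp1, Sfrp2 and Frzb were above 0 in 20 of 20 alternatives, Dkk3 in 17 of 17 and Wnt5a in 0 of 19. The spread among 3 MI mice limits the test, and genes under an FPKM of 1 rest on few fragments.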
